A study of Mus musculus with 12 samples.

Results

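Long intergenic noncoding RNAs (lincRNAs) were followed from GFRα1+ to NGN3+ to KIT+ spermatogonia with 16251 array probes, which are 29.2% of the 55681 non-control probes of the array. A probe was taken as a lincRNA probe when its annotation in the files contained that word, so no measured value picked the probes. The set itself was chosen with earlier results of these data known. The probes cover 4622 stranded regions in 3555 genomic intervals, with 1 to 10 probes (median 3) for a region. A region is named here as in the files, by its chromosome, start and end in the mm9 build and by F for the forward or R for the reverse strand. Of the intervals, 1067 were probed on both strands, 1257 on the forward strand only and 1231 on the reverse strand only. The regions had a median length of 10676 bp, 587 probes lay on the X chromosome and none on the Y, and 16194 probes bore no gene name.

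RNA from testes of C57BL/6 mice aged 10 to 11 weeks was hybridised to 1-colour Agilent arrays, on which spot brightness follows the amount of a transcript. Each of 4 groups had 3 arrays. GFRα1+ cells were the GFP+ cells of Gfra1-EGFP mice, in which the reporter stands at the gene of the GDNF receptor GFRα1, with 1 mouse per sample. NGN3+ cells were the GFP+/KIT− and KIT+ cells the GFP+/KIT+ cells of Ngn3-EGFP transgenic mice, whose GFP persists after the gene is silenced. NGN3+ samples pooled 2 mice and KIT+ samples came from 1 mouse each. No treatment was given, and unsorted whole testes of wild-type littermates of the Gfra1-EGFP mice formed the remaining group. A sorted sample held 10000 to 20000 cells, a whole testis sample 500000, and 25 ng of RNA was labelled in each case. In bulk RNA such as this, fewer cells of a type and less RNA per cell cannot be told apart.

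LincRNAs are transcribed between protein-coding genes, are often spliced and polyadenylated, and are usually less abundant and more restricted to 1 tissue than mRNAs. Some act on chromatin near their own gene, as Xist does on the inactive X chromosome, and others work in nuclear bodies, as Malat1 does in nuclear speckles. The testis is known for expressing many of them, above all in meiotic and postmeiotic germ cells.

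A level is the log2 processed signal of a probe minus the 75th percentile of its array, so that a level of 0 equals that percentile. A probe was called detected on an array when its spot was marked as well above background there. Ratios, their standard errors (SE) and adjusted p values come from limma with Benjamini-Hochberg adjustment over all probes tested, and a probe entered a test if either group had it detected on each of its 3 arrays. The sort marker genes were each highest in the matching fraction: Gfra1 had a mean level of 1.65 in GFRα1+ cells, Neurog3 of 5.23 in NGN3+ cells and Kit of 4.55 in KIT+ cells. Arrays lay on 3 slides. GFRα1+ replicates 1 and 2 shared the first slide with whole testes replicate 1, GFRα1+ replicate 3 shared the second with all NGN3+ and KIT+ arrays, and whole testes replicates 2 and 3 were on the third. NGN3+ and KIT+ cells therefore shared no slide with whole testes.

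The 60-base sequences of the probes on which the results below turn follow, from 5′ to 3′. The first set is that of the lincRNA probes with the largest rises from GFRα1+ to NGN3+ cells among those detected on every array of both groups. With them are 3 that were detected in NGN3+ and on no GFRα1+ array. The pair on chromosome 17 differs at 1 of 60 positions, at position 8 from the 5′ end, and the capital letter marks that base.
chr15:74436455-74466741_R, probe at chr15:74438604-74438663, reverse strand: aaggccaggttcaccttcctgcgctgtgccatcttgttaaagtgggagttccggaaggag
chr7:137669440-137672712_F, probe at chr7:137672564-137672623, forward strand: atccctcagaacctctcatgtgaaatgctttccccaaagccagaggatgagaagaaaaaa
chr17:15132576-15147002_R, probe at chr17:15136146-15136205, reverse strand: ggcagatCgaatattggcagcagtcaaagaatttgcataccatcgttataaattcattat
chr17:15100982-15115630_R, probe at chr17:15104550-15104609, reverse strand: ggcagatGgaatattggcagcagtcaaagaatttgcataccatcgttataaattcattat
chr13:24833082-24838461_F, probe at chr13:24838402-24838461, forward strand: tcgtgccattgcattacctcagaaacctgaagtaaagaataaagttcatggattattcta
chr12:53700970-53703612_R, probe at chr12:53702977-53703036, reverse strand: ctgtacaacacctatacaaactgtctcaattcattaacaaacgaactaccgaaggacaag
chr13:98479793-98481177_R, probe at chr13:98479854-98479913, reverse strand: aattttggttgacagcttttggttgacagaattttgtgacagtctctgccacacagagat

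The second set fell from GFRα1+ to NGN3+ cells. It holds the 4 largest falls of probes detected on every array of both groups, then a region close to the imprinted gene Snrpn. Among the 4 are the region the array calls BRN1-A and the 5′ part of Malat1.
chr1:42705044-42751670_R, probe at chr1:42705111-42705170, reverse strand: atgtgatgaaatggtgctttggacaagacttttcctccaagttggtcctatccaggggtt
chr12:82500406-82501102_F, probe at chr12:82501035-82501094, forward strand: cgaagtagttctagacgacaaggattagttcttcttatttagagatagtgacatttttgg
chr19:5801802-5802597_R, probe at chr19:5802191-5802250, reverse strand: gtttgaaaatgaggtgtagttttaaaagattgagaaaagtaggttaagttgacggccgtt
chr14:67587065-67588705_F, probe at chr14:67588646-67588705, forward strand: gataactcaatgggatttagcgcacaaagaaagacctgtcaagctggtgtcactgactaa
chr7:67119535-67120213_R, probe at chr7:67119536-67119595, reverse strand: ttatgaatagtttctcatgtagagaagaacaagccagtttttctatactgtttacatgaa

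The third set moved between NGN3+ and KIT+ cells, the first 5 upwards (the fifth is the region of Airn) and the last 5 downwards.
chr16:17833211-17835112_F, probe at chr16:17834891-17834950, forward strand: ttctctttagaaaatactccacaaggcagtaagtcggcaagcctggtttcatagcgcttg
chr17:32213027-32228368_R, probe at chr17:32213318-32213377, reverse strand: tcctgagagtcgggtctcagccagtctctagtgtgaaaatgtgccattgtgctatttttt
chr4:21683562-21694350_R, probe at chr4:21684757-21684816, reverse strand: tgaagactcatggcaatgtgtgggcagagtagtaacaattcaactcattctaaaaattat
chr1:194659312-194661407_R, probe at chr1:194659370-194659429, reverse strand: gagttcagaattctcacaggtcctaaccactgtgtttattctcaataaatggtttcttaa
chr17:12941161-12944859_F, probe at chr17:12944475-12944534, forward strand: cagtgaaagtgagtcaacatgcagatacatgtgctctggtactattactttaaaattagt
chr1:135956616-135957485_R, probe at chr1:135956619-135956678, reverse strand: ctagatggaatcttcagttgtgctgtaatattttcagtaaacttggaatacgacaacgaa
chr16:23992037-24001037_F, probe at chr16:23995226-23995285, forward strand: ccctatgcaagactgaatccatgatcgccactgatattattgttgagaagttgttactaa
chr8:48480224-48480698_R, probe at chr8:48480250-48480309, reverse strand: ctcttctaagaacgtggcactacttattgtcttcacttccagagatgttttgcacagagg
chr10:120058696-120076196_R, probe at chr10:120069222-120069281, reverse strand: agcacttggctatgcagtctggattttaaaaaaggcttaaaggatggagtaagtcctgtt
chr11:53596919-53672731_R, probe at chr11:53596980-53597039, reverse strand: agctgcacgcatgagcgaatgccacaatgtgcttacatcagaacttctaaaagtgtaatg

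The last set separated spermatogonia from whole testes: a region beside Trim71, the H19 gene, a region of chromosome 7 near Gm6871, and Xist. For Xist this holds for GFRα1+ and NGN3+ cells only. Probes of Kcnq1ot1, of Malat1 (NEAT2 in the files) from its 3′ to its 5′ part and of Tug1 are added because results differed between places of these transcripts or held at all of them.
chr9:114416254-114416844_R, probe at chr9:114416594-114416653, reverse strand: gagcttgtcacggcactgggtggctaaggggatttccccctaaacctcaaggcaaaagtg
H19, probe at chr7:149761693-149761752, reverse strand: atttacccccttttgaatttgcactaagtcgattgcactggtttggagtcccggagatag
chr7:48794017-48815817_R, probe at chr7:48799855-48799914, reverse strand: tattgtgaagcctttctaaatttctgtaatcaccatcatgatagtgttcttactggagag
Xist, probe at chrX:100655839-100655898, reverse strand: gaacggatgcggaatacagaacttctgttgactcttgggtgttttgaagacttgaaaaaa
Kcnq1ot1, probe at chr7:150482141-150482200, forward strand: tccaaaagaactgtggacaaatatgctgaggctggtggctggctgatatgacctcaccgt
Malat1, probe at chr19:5795713-5795772, reverse strand: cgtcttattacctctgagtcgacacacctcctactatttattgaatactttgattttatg
Malat1, probe at chr19:5798256-5798315, reverse strand: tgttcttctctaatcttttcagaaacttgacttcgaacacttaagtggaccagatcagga
Malat1, probe at chr19:5802130-5802189, reverse strand: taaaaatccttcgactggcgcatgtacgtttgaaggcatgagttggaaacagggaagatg
Tug1, probe at chr11:3540263-3540322, reverse strand: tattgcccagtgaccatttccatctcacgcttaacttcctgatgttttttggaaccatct

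Fewer lincRNA probes were detected in GFRα1+ cells than in NGN3+ cells, KIT+ cells or whole testes. The share of lincRNA probes detected was 27.1%, 26.9% and 28.6% on the GFRα1+ arrays. It was 37.6%, 38.1% and 46.0% on the NGN3+ arrays and 41.3%, 31.4% and 37.0% on the KIT+ arrays. Whole testes gave 33.2%, 30.3% and 31.9%. The GFRα1+ arrays lay below all others, with an exact 2-sided permutation p of 0.1 against each group, the smallest that 3 arrays against 3 can give. NGN3+ and KIT+ arrays overlapped (p = 0.4 by the same exact test), and NGN3+ arrays lay above whole testes (exact p = 0.1). The other probes of the array moved alike and were detected more often: 59.68% to 60.01% in GFRα1+, 68.5% to 73.0% in NGN3+, 64.5% to 70.5% in KIT+ cells and 65.0% to 67.7% in whole testes. The GFRα1+ arrays were also the dimmest. Before scaling, the 75th percentile of intensity was 318 to 340 in GFRα1+, 473 to 675 in NGN3+, 568 to 633 in KIT+ cells and 380 to 422 in whole testes. The part of array brightness in the detected shares was not tested.

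**Figure D1:**
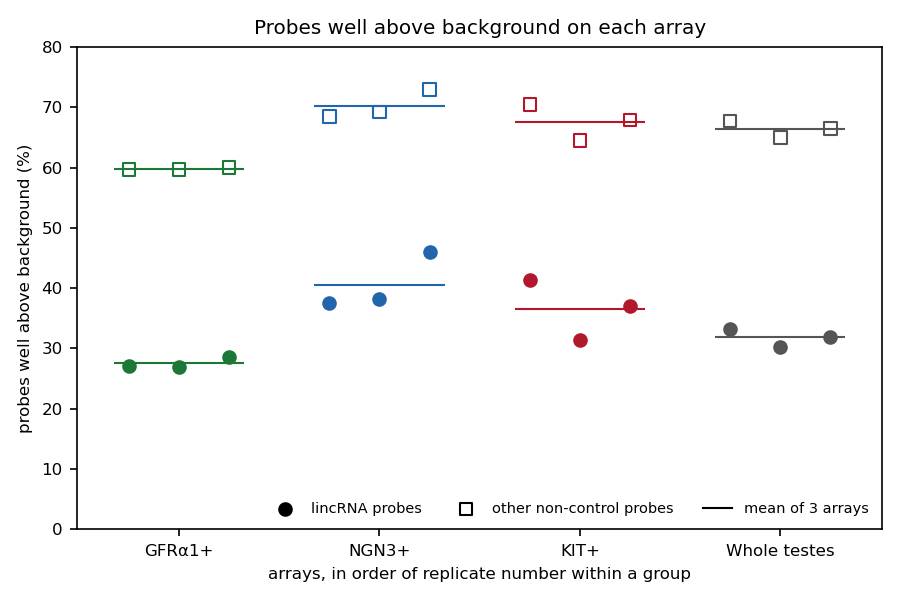
Share of probes detected (well above background, in %) on each array, by group. Filled circles are lincRNA probes, open squares are the other non-control probes and lines are means of 3 arrays; GFRα1+ arrays have the lowest shares of both kinds, at 26.9% to 28.6% for lincRNA probes.

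Counted by region, 1948 of 4622 lincRNA regions (42.1%) had a probe detected on all 3 GFRα1+ arrays, 2696 (58.3%) in NGN3+ cells, 2404 (52.0%) in KIT+ cells and 2311 in whole testes. No array detected 6791 of the lincRNA probes (41.8%), against 18.9% of the other probes. All 12 arrays detected 2885 lincRNA probes (17.8%), against 50.2% of the other probes. Some patterns were rarer. Detected on every array of sorted cells and on no whole testis array were 253 probes (190 regions), and 153 were detected on all 3 whole testis arrays and on no sorted array. A further 238 were detected on all arrays of the other groups and on no GFRα1+ array. On all 3 arrays of 1 sorted fraction and on no other array were 2 probes for GFRα1+, 51 for NGN3+ and 15 for KIT+ cells. As shares of lincRNA and of other probes, these patterns held 1.56% and 1.92% (sorted cells), 0.942% and 1.43% (whole testes), 1.46% and 3.61% (all but GFRα1+), 0.0123% and 0.0634% (GFRα1+), 0.314% and 0.269% (NGN3+) and 0.0923% and 0.0812% (KIT+). Detection also rose with the G and C content of the probe, from 12.1% of lincRNA probes on GFRα1+ arrays below 35% G and C to 45.8% at 55% or above. The rise was not steady, with 25.6% from 40% to under 45% G and C and 24.5% from 45% to under 50%. Other probes went from 50.5% to 68.5% between the same ends.

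From GFRα1+ to NGN3+ cells, more lincRNA probes fell than rose. Of 5531 probes tested, 742 were higher in NGN3+ cells (13.4%, against 18.9% of all probes tested) and 1548 were lower (28.0%, against 36.3%). They lay in 475 and 937 regions. The median log2 ratio was −0.13, beside −0.20 for all probes tested. The probes that rose were dim in GFRα1+ cells: 423 of the 742 were detected on no GFRα1+ array and were tested only because they were bright in NGN3+ cells. Among the 3676 probes detected on all arrays of both groups, 215 rose (5.85%) and 1475 fell (40.1%), beside 13.0% and 44.5% of the other probes. Without GFRα1+ replicate 3 the count of rises was 1130, within the second slide 501 rose and 1103 fell, and with the slide as a block 476 rose and 1050 fell. The second slide holds 1 GFRα1+ array, on which both of these contrasts rest, and that array is assumed to vary like the other groups. Scaling changed the balance: with the percentile taken over probes detected on every array, 977 rose and 1021 fell (median 0.05, −0.02 for all probes tested). With normexp background correction 314 rose and 2762 fell (median −0.32, −0.25 for all), and with quantile normalization 551 rose and 1844 fell (median −0.26, −0.15 for all), so whether the lincRNA median lay above or below that of all probes depended on the scaling.

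**Figure D2:**
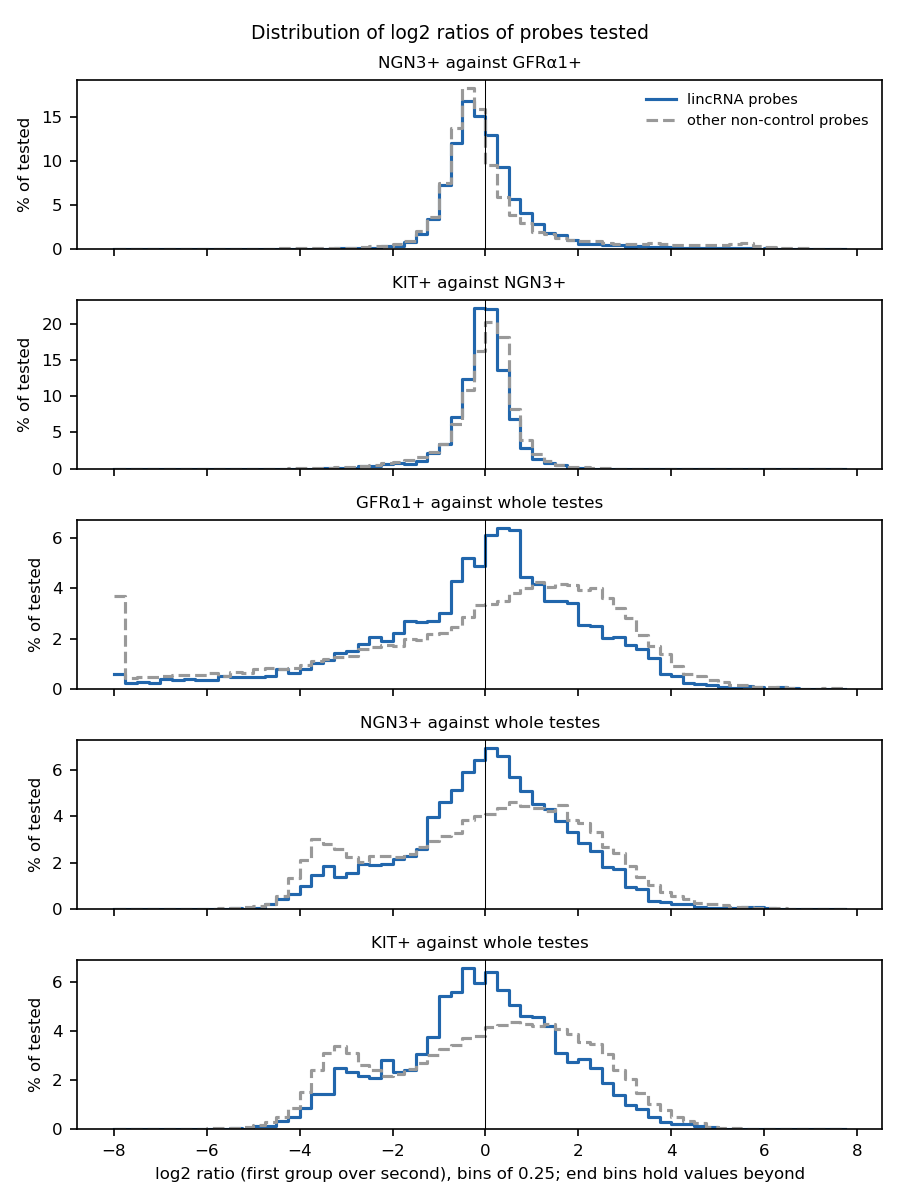
Distribution of the log2 ratio (x axis, first group over second, bins of 0.25) in each of the 5 comparisons, as the percentage of probes tested (y axis). Solid lines are lincRNA probes and dashed lines are other probes; in NGN3+ against GFRα1+ the lincRNA median is −0.13 and in KIT+ against NGN3+ it is −0.02, and comparisons with whole testes are wider.

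The largest rise among probes detected on every array of both groups was in chr15:74436455-74466741_R, which has a probe of the protein-coding gene Mroh4 inside it on the same strand. Its level was −1.72, −2.43 and −2.01 on the GFRα1+ arrays, 1.71, 2.66 and 2.97 on the NGN3+ arrays, 2.83, 2.01 and 2.70 on the KIT+ arrays and 5.35, 5.76 and 5.70 in whole testes. NGN3+ and KIT+ arrays overlapped, GFRα1+ arrays lay below both and whole testes above both. The log2 ratio of NGN3+ to GFRα1+ was 4.50 (SE 0.35, adjusted p = 1.65e-05, limma), and all 3 probes of the region were higher. The Mroh4 probe had a ratio of 6.02.

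Regions of chr7:137669440-137672712_F and of chromosome 17 followed. The first, with the gene Gm4275 inside it, had levels of −3.67, −3.33 and −2.41 in GFRα1+, −0.11, 0.88 and 0.49 in NGN3+, 1.17, 0.39 and 1.1 in KIT+ cells and 3.69, 3.63 and 3.66 in whole testes (ratio 3.56, SE 0.37, adjusted p = 9.31e-05). The probe of chr17:15132576-15147002_R, with Gm3448 inside, had levels of 1.52, 1.46 and 1.40 in GFRα1+, 4.22, 5.14 and 5.25 in NGN3+, 5.40, 4.65 and 5.12 in KIT+ cells and 7.92, 8.58 and 8.42 in whole testes (ratio 3.41, SE 0.28). Its near-identical partner in chr17:15100982-15115630_R had levels of 1.18, 1.21 and 1.06 in GFRα1+, 3.90, 4.74 and 5.005 in NGN3+, 5.04, 4.35 and 4.77 in KIT+ cells and 7.88, 8.34 and 8.25 in whole testes (ratio 3.40, SE 0.28), and signal from both loci cannot be told apart on such probes. The order of the groups was the same for all of these, with whole testes above every sorted array.

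The same held for each of the 10 largest rises, whose log2 ratios ran from 2.41 to 4.50: every whole testis array was above every sorted array. Of the 10, 7 had a named gene probe inside the region on its own strand. Besides those above they were 1700108F19Rik, Catsperd (a subunit of the sperm calcium channel), 1700019A02Rik and Rcor3.

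Among probes detected in NGN3+ cells and on no GFRα1+ array, the ratio is a lower bound set by the dimmest detected signal. The probe of chr13:24833082-24838461_F, which overlaps a probe of the gene Armh2, had levels of 0.23, 0.98 and 0.91 in NGN3+ cells, 1.51, 0.94 and 1.40 in KIT+ cells and 4.35, 4.53 and 4.34 in whole testes. It was at least 27.7-fold higher in NGN3+ cells than in the GFRα1+ fraction (adjusted p = 2.07e-06). The probe of chr12:53700970-53703612_R was at least 24.5-fold higher, that of chr18:83087114-83122014_R at least 18.8-fold and that of chr13:98479793-98481177_R at least 13.9-fold. The last had no named gene within 100 kb. In all 4, every whole testis array was again above every sorted array.

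Markers of later germ cells and of peritubular myoid cells moved with these rises. Most Sertoli cell markers did too, though not their summed level, and markers of other testis cells were mixed. All 23 spermatid markers on the array (of 24 listed) rose from GFRα1+ to NGN3+ cells (median log2 ratio 5.45), and their summed log2 level was 4.94 to 6.08 in GFRα1+, 10.4 to 10.8 in NGN3+, 10.71 to 11.08 in KIT+ cells and 12.7 to 13.0 in whole testes. Of these markers Acrv1 was detected on no GFRα1+ array. Of 12 spermatocyte markers 10 were higher and 2 lower in NGN3+ cells, with summed levels of 5.44 to 5.63 in GFRα1+, 7.27 to 7.99 in NGN3+, 7.60 to 8.15 in KIT+ cells and 10.3 to 10.5 in whole testes. All 8 markers of peritubular myoid cells were higher as well, and 6 of the 8 were lower in KIT+ than in NGN3+ cells. Their summed levels were 2.10 to 2.40 in GFRα1+, 4.148 to 4.997 in NGN3+, 4.03 to 4.41 in KIT+ cells and 7.40 to 7.59 in whole testes. Of 19 Sertoli cell markers tested 12 were higher and 1 was lower (median log2 ratio 0.93). The summed level of the Sertoli list was not higher, at 6.19 to 6.40 in GFRα1+, 5.82 to 6.21 in NGN3+ and 8.19 to 8.41 in whole testes. Of 6 endothelial markers tested 1 was higher and 1 lower, and of 4 macrophage and leukocyte markers 2 were higher and 1 lower. Of 8 Leydig cell markers on the array, 5 (Cyp11a1, Hsd3b1, Hsd3b6, Lhcgr and Hsd17b3) were detected on no sorted array. Lhcgr was detected on no whole testis array either. The other 3, Star, Cyp17a1 and Nr5a1, were detected on all NGN3+ and all KIT+ arrays. Of these, Nr5a1 was higher and Cyp17a1 lower in NGN3+ than in GFRα1+ cells. The part of other cells in the rises was not tested.

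The falls from GFRα1+ to NGN3+ cells had another pattern across the groups. The median level of the 1548 probes that fell was −1.09 in GFRα1+, −1.83 in NGN3+, −1.81 in KIT+ cells and −2.11 in whole testes, whereas that of the 742 that rose was −4.60, −2.84, −2.86 and −1.56. In each set the order of the GFRα1+ and NGN3+ levels follows from how the probes were chosen. Among probes detected on every array of both groups, the largest fall was in chr1:42705044-42751670_R, the BRN1-A region, which contains the lincRNA gene Pantr1 on the same strand. Its level was −0.90, −0.84 and −1.13 in GFRα1+, −3.63, −4.61 and −3.64 in NGN3+, −3.90, −3.97 and −4.33 in KIT+ cells and −1.53, −1.62 and −1.004 in whole testes. GFRα1+ cells and whole testes were high, and both other fractions were low without overlap. The ratio was −3.00 (SE 0.26, adjusted p = 3.1e-05), and all 4 probes of the region fell. The array carries the same 60 bases again under the name Pantr1, with a ratio of −2.92, which is a repeat of the measurement and not a separate one.

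The 5′ part of Malat1, chr19:5801802-5802597_R, had levels of 3.57, 4.18 and 3.43 in GFRα1+, 1.43, 1.36 and 1.45 in NGN3+, 0.98, 1.37 and 1.12 in KIT+ cells and 3.45, 3.40 and 3.099 in whole testes. The groups NGN3+ and KIT+ overlapped and lay below GFRα1+ cells and whole testes. The ratio was −2.32 (SE 0.20, adjusted p = 2.63e-05), and all 3 probes of the region fell. Near Snrpn, a paternally expressed gene of an imprinted cluster, chr7:67119535-67120213_R had a ratio of −2.18 (SE 0.25, 3 of 3 probes lower) and chr7:67111261-67120697_R one of −2.04 (SE 0.22, 2 of 2 lower). Both lie on the strand of Snrpn, 7213 and 6729 bp from its probe, and neither probe was detected on a whole testis array.

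For 5 of the 10 largest falls GFRα1+ replicate 3, which shared the slide of the NGN3+ arrays, was far below the other GFRα1+ arrays. The probe of chr12:82500406-82501102_F had levels of 0.00, 0.10 and −3.10 in GFRα1+ and −3.69, −3.77 and −3.78 in NGN3+ cells. Its ratio was −2.75 (SE 0.73) over all arrays and −0.64 (adjusted p = 0.0242) within the second slide, where 1 GFRα1+ array stands against 3 NGN3+ arrays and the spread comes from the other groups. The probe of chr14:67587065-67588705_F had levels of 1.25, 1.41 and −1.53 against −2.04, −1.83 and −1.83, and its ratio moved from −2.28 to −0.37 within that slide and did not pass there (adjusted p = 0.12). Ratios within the second slide were −1.098 for chr17:95255725-95272425_R, −0.85 for chr14:44292637-44293014_F and −0.75 for chr10:97196521-97207471_F, against −2.19, −2.17 and −2.05 over all arrays.

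**Figure D3:**
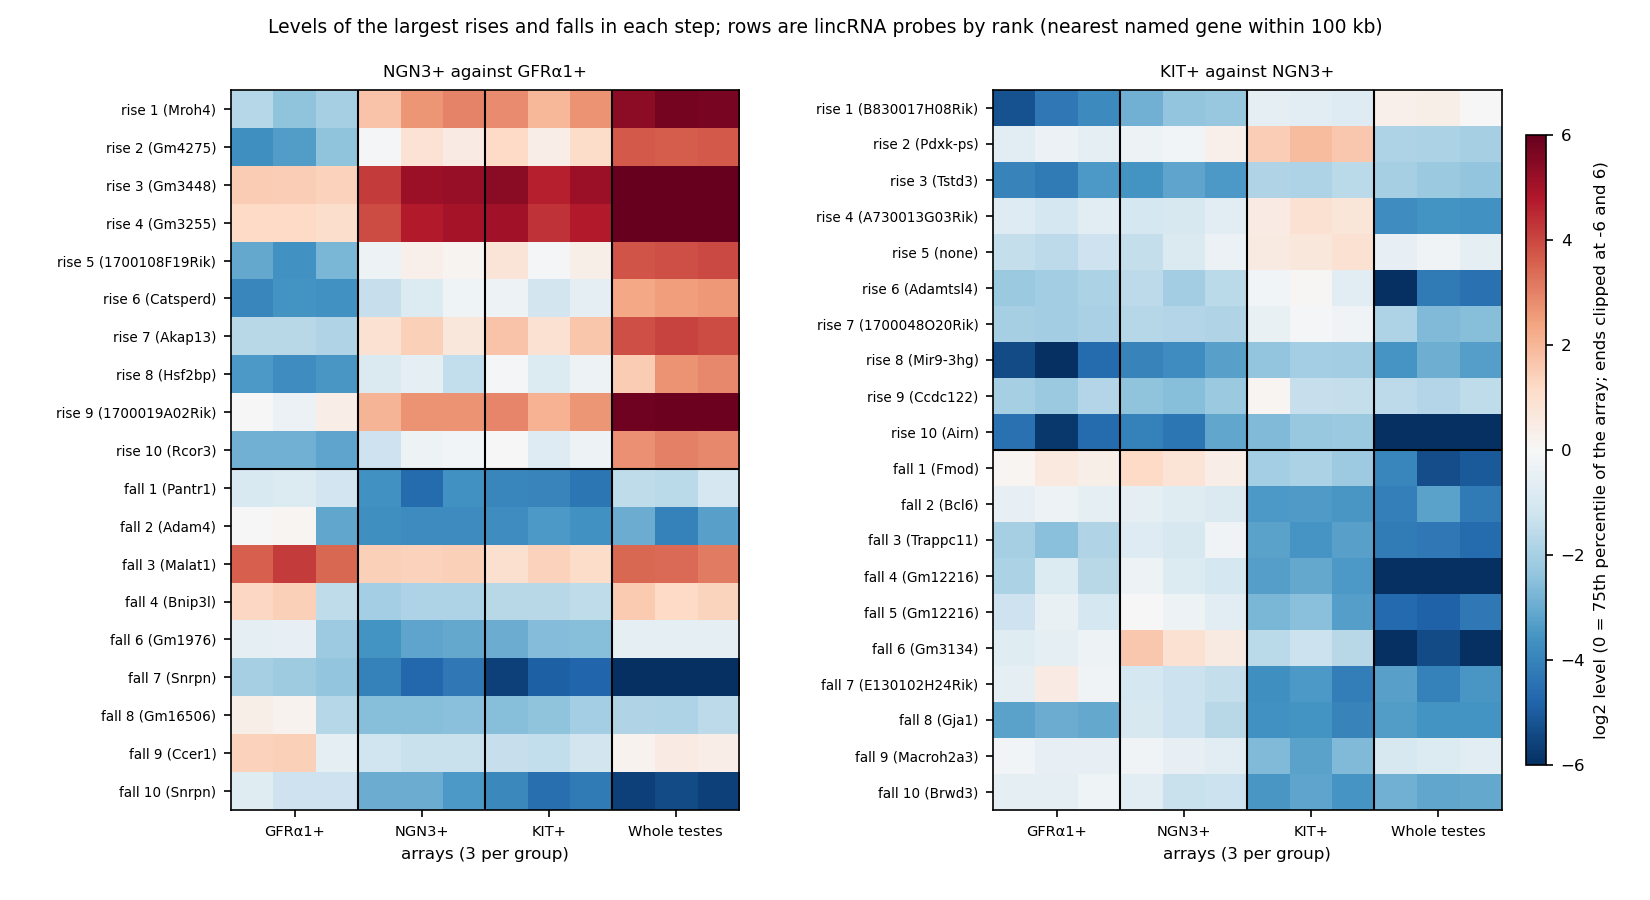
Levels (colour, log2, 0 = 75th percentile of the array) of the lincRNA probes with the largest rises and falls from GFRα1+ to NGN3+ (left, without fall 5) and from NGN3+ to KIT+ cells (right), on all 12 arrays. Only probes detected on every array of both groups compared were ranked. Rows carry the nearest named gene within 100 kb; all 10 rises on the left are highest in whole testes, and falls 2, 4, 6, 8 and 9 on the left have a low GFRα1+ replicate 3.

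From NGN3+ to KIT+ cells, fewer lincRNA probes changed. Of 5687 tested, 547 were higher in KIT+ cells (9.62%, against 16.9% of all probes tested) and 706 were lower (12.4%, against 16.9%), in 297 and 382 regions. The median log2 ratio was −0.02, beside 0.04 for all probes tested. All arrays of this comparison shared a slide. Without NGN3+ replicate 2 the count of rises was 320. No KIT+ array detected 129 of the 706 probes that fell. Where both groups had to be detected, 510 were higher and 464 lower (median 0.03), so the balance turned.

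Among probes detected on every array of both groups, the largest rise was in chr16:17833211-17835112_F, with the noncoding gene B830017H08Rik inside it. Its levels were −2.87, −2.35 and −2.27 in NGN3+, −0.59, −0.63 and −0.76 in KIT+ cells and 0.29, 0.34 and 0.04 in whole testes, and no GFRα1+ array detected it. The ratio was 1.84 (SE 0.32, adjusted p = 0.00258), and all 3 probes of the region rose. It was the only one of the 10 largest KIT+ rises in which every whole testis array was above every sorted array.

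Other KIT+ rises were lower in whole testes. The probe of chr17:32213027-32228368_R, with the pseudogene Pdxk-ps inside, had levels of −0.63, −0.37 and −0.52 in GFRα1+, −0.29, −0.14 and 0.29 in NGN3+, 1.47, 1.88 and 1.63 in KIT+ cells and −1.83, −1.91 and −2.01 in whole testes (ratio 1.71, SE 0.18, adjusted p = 0.000192). The probe of chr1:194659312-194661407_R, with the noncoding gene A730013G03Rik inside, had levels of −1.05, −0.97 and −0.63 in NGN3+, 0.51, 0.92 and 0.72 in KIT+ cells and −3.71, −3.58 and −3.64 in whole testes (ratio 1.60, SE 0.17, 3 of 3 probes higher). In both, the KIT+ arrays lay above all others. The probe of chr4:21683562-21694350_R, which overlaps a probe of Tstd3, went from −3.58, −3.18 and −3.46 to −1.79, −1.87 and −1.64 (ratio 1.64, SE 0.21). KIT+ arrays were above NGN3+ arrays without overlap there too.

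Airn, an antisense RNA expressed from the paternal allele that silences its neighbour Igf2r in cis, lies in chr17:12941161-12944859_F, the region with the tenth largest rise. The probe printed above had levels of −4.04, −4.36 and −3.11 in NGN3+ cells and −2.66, −2.26 and −2.21 in KIT+ cells, and neither a GFRα1+ nor a whole testis array detected it. The groups did not overlap, and the ratio was 1.46 (SE 0.40, adjusted p = 0.0227). All 5 probes of the region were called higher in KIT+ cells, at 1.02 to 1.54. Of 2 Airn probes outside the lincRNA set, the one starting at 12944784, within the region, had a ratio of 1.62, and the one starting at 13008078 had a ratio of 0.20 that did not pass (adjusted p = 0.301). For the printed probe the call was lost in 6 of the alternatives, among them the fits without KIT+ replicate 2 or 3 and without NGN3+ replicate 1 or 2 (ratios 1.20 to 1.40).

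Among probes detected on every array of both groups, the largest fall from NGN3+ to KIT+ cells was in chr1:135956616-135957485_R. Its levels were 0.13, 0.56 and 0.36 in GFRα1+, 1.19, 0.83 and 0.38 in NGN3+, −2.03, −1.88 and −2.17 in KIT+ cells and −3.92, −5.31 and −5.06 in whole testes. KIT+ arrays lay between the other fractions and whole testes with no overlap. The ratio was −2.83 (SE 0.21, adjusted p = 4.63e-05), and all 3 probes of the region fell.

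The probe of chr16:23992037-24001037_F had levels of −0.60, −0.73 and −0.85 in NGN3+ and −3.47, −3.42 and −3.51 in KIT+ cells (ratio −2.74, SE 0.11), and 6 of the 7 probes tested there fell. The nearest named probe, 26818 bp away on the opposite strand, is that of Bcl6, a transcriptional repressor, whose ratio was −3.07. The probe of chr8:48480224-48480698_R had levels of −0.78, −0.98 and −0.22 in NGN3+ and −3.22, −3.56 and −3.28 in KIT+ cells (ratio −2.69, SE 0.24). The overlapping regions chr11:53596919-53672731_R and chr11:53592946-53637922_R fell by similar amounts (ratios −2.55 and −2.54, SE 0.29 and 0.27), with 3 of 3 and 5 of 5 probes lower, and the noncoding gene Gm12216 inside them had a ratio of −1.94. The probe of chr15:61984389-62102500_R, with the transcribed pseudogene Macroh2a3 inside (−2.68), had a ratio of −2.41 (SE 0.19). The probe of chr10:120058696-120076196_R was detected on all GFRα1+ and NGN3+ arrays and on no KIT+ array, and was at least 15.8-fold lower in KIT+ cells (adjusted p = 7.46e-05). For the whole set of 706, median levels were −1.96 in GFRα1+, −2.14 in NGN3+, −3.27 in KIT+ cells and −3.60 in whole testes. The order of the NGN3+ and KIT+ levels here follows from how the probes were chosen.

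Sorted cells and whole testes differed at many more lincRNA probes. Comparing GFRα1+ cells with whole testes, 2167 of 5158 probes were higher (42.0%, against 50.6% of all probes tested) and 1804 were lower (35%, against 36.7%). In NGN3+ cells 2246 of 6088 were higher (36.9%, against 44.7%) and 2051 were lower (33.7%, against 38.4%). In KIT+ cells 1946 of 5588 were higher (34.8%, against 43.9%) and 2170 were lower (38.8%, against 40.6%). The median ratios were 0.15, 0.08 and −0.07, beside 0.44, 0.19 and 0.10 for all probes tested. Within the first slide 1987 were higher and 1719 lower in GFRα1+ cells. With the slide as a block 2044 were higher and 1617 lower in GFRα1+, 1490 and 1515 in NGN3+ and 1296 and 1567 in KIT+ cells, the last 4 of these counts through GFRα1+ arrays alone. These balances shifted with scaling too: with normexp correction 1445 rose and 2429 fell in NGN3+ cells and 1338 rose and 2485 fell in KIT+ cells, and with the percentile over probes detected on every array 1675 rose and 2275 fell in GFRα1+ cells (median −0.26, 0.03 for all probes tested). In NGN3+ cells the balance also turned where both groups had to be detected (1076 higher, 1535 lower) and with no filter (3083 higher, 3943 lower).

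Among lincRNA probes detected on every array of both groups, that of chr9:114416254-114416844_R differed most in favour of GFRα1+ cells. It lies on the strand of Trim71, an RNA-binding protein of early embryonic and germ cells, 3571 bp from the Trim71 probe. Its level was 3.04, 2.84 and 3.16 in GFRα1+, 2.85, 2.47 and 2.16 in NGN3+, 1.20, 1.27 and 1.07 in KIT+ cells and −3.34, −3.63 and −3.24 in whole testes. KIT+ arrays lay below the other sorted arrays and whole testes far below all of them, with a GFRα1+ to whole testes ratio of 6.41 (SE 0.18, adjusted p = 1.41e-10), and the Trim71 probe had a ratio of 5.91. The region chr9:114412295-114418384_R, which contains it, was detected on no whole testis array and was at least 56.2-fold higher in GFRα1+ cells. The region chr7:48794017-48815817_R, near the gene Gm6871, had levels of 1.89, 1.86 and 1.86 in GFRα1+, 1.41, 1.20 and 1.12 in NGN3+, 0.72, 1.16 and 0.85 in KIT+ cells and −3.28, −3.71 and −3.17 in whole testes. Its GFRα1+ ratio was 5.26 (SE 0.16, 5 of 5 probes higher), and the probe of chr12:16833551-16901804_F, whose 60 bases the array carries again under the name of the repressor gene E2f6 (4.75), one of 4.79 (SE 0.16). In NGN3+ cells a probe of chr5:33773382-33776739_R, in the homeobox gene Nkx1-1, had a ratio of 5.35 (SE 0.19, 3 of 3 higher), and one of chr8:91569369-91594119_F was at least 42.6-fold higher.

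Among probes detected on every array of both groups, KIT+ cells differed most upwards from whole testes in chr11:96111499-96126224_R (ratio 4.67, SE 0.14). Its mean levels were 0.79 ± 0.08 (SD, n = 3) in GFRα1+, 1.01 ± 0.21 in NGN3+, 2.45 ± 0.18 in KIT+ cells and −2.22 ± 0.14 in whole testes. Another 4 probes, detected on all KIT+ arrays and on no whole testis array, had fitted log2 ratios of 4.68 to 5.70. Downwards, GFRα1+ cells were at least 392-fold lower than whole testes at chr12:53700970-53703612_R and at least 361-fold lower at chr13:24833082-24838461_F, both described above as undetected in GFRα1+ cells. Sorted NGN3+ and KIT+ cells were at least 20.2-fold and 20.1-fold lower than whole testes at probes of chrX:121032646-121038407_R.

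Only 57 of the lincRNA probes bore another name in the files, among them those of genes with known roles. H19, an imprinted RNA of the maternal allele, had levels of 3.81, 3.60 and 3.84 in GFRα1+, 2.14, 1.82 and 2.22 in NGN3+, 2.32, 2.56 and 2.30 in KIT+ cells and −2.19, −2.47 and −2.04 in whole testes at the probe shown. GFRα1+ arrays were above all others, and NGN3+ arrays were below KIT+ arrays without overlap. All 5 H19 probes fell from GFRα1+ to NGN3+ cells, at −1.69 to −1.47, none passed from NGN3+ to KIT+ cells (0.18 to 0.33), and all 5 were higher in GFRα1+ cells than in whole testes, at 5.59 to 6.28.

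Xist, the RNA that coats the inactive X chromosome, was dim. At the probe shown its levels were −2.72, −2.79 and −3.12 in GFRα1+, −2.16, −2.50 and −2.56 in NGN3+ and −5.15, −4.55 and −4.75 in KIT+ cells. It was detected on every GFRα1+ and NGN3+ array, on no KIT+ and on no whole testis array. The probe was at least 5.11-fold lower in KIT+ than in NGN3+ cells (adjusted p = 5.83e-05). Of the 4 Xist probes tested in that comparison 3 were lower, and 1 of 4 was higher in NGN3+ than in GFRα1+ cells.

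Kcnq1ot1, a paternal antisense RNA that silences genes of the Kcnq1 domain, gave opposite results at its probes. The probe at 150482141 on chromosome 7 was at 0.45, 0.62 and −0.36 in GFRα1+, −0.80, −1.27 and −0.93 in NGN3+ cells and −1.88, −1.53 and −1.36 in whole testes, and fell from GFRα1+ to NGN3+ cells (ratio −1.23, SE 0.25). The other 4 probes were detected on all whole testis arrays and on no GFRα1+ array, and 3 of them were lower in GFRα1+ cells than in whole testes. Of the BRN1-A, Neat1 and Hotair loci, Neat1, the scaffold of paraspeckles, had 4 of 5 probes lower in NGN3+ than in GFRα1+ cells (all 5 at −0.62 to −0.38), and Hotair had 1 of 5 probes tested, which did not pass in either step. No probe of Pinc, Tsix or lincP21 was tested in any comparison.

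Malat1 and Tug1 were covered at several places along the transcript, and Malat1 probes differed by place. Probes 0.37 to 0.51 kb from the 5′ end of the annotated Malat1 region had NGN3+ to GFRα1+ ratios of −2.32 to −2.11, those at 4.08 to 4.39 kb −1.75 to −1.57 and those at 6.81 to 6.93 kb −1.12 to −0.66, and all 10 passed. From NGN3+ to KIT+ cells the ratios were −0.26 to −0.17 at the 5′ end with none passing, −0.60 to −0.54 in the middle with all 3 lower, and 0.51 to 0.84 near the 3′ end with 3 of 4 higher. For Tug1, a widely expressed nuclear and cytoplasmic lincRNA, probes at 5.24 to 5.37 kb had NGN3+ to GFRα1+ ratios of −0.93 to −0.88 and those at 7.06 to 7.30 kb −0.52 to −0.10. All 11 Tug1 probes rose from NGN3+ to KIT+ cells, at 0.58 to 0.77. Several of these probes overlap in sequence or belong to more than 1 annotated region, so they are not independent.

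**Figure D4:**
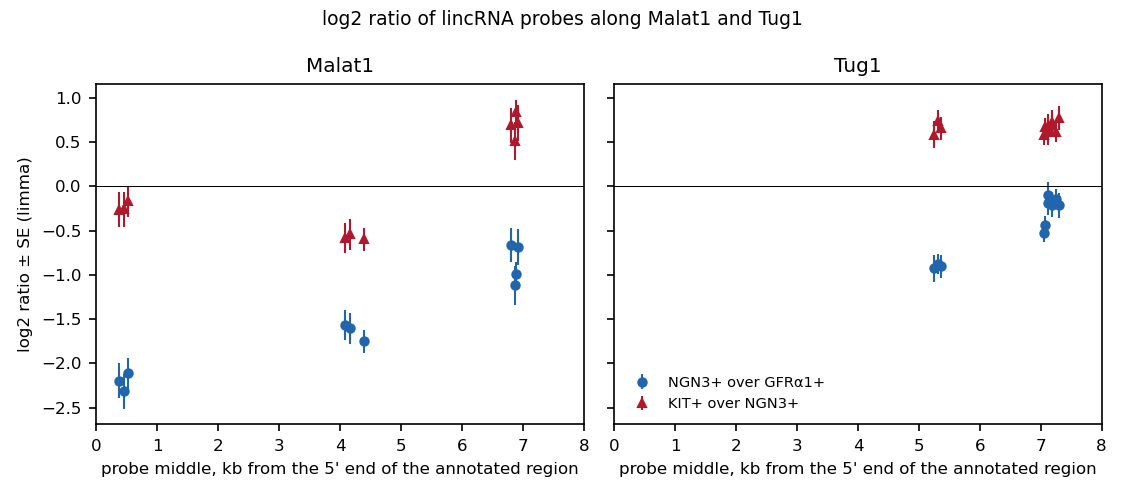
Log2 ratio ± SE (y axis) of lincRNA probes against the distance in kb of the probe from the 5′ end of the annotated region (x axis), for Malat1 and Tug1. Circles are NGN3+ over GFRα1+ and triangles KIT+ over NGN3+; for Malat1 the circles run from −2.32 at the 5′ end to −0.66 near the 3′ end and the triangles from −0.26 to 0.84, and for Tug1 all triangles are above 0.

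Long noncoding RNA genes that carry a symbol were examined as a separate list of 62, of which 46 were on the array and 32 were tested in the comparison of NGN3+ with GFRα1+ cells, each by its brightest probe. Of these, 3 were higher in NGN3+ cells (Tsx, Terc and Crnde) and 19 were lower, beside 18.9% and 36.3% of all probes tested, with a median ratio of −0.41, beside −0.20 for all probes tested. A second probe of Pvt1, which was lower by its brightest probe (−0.79), was higher (2.43, adjusted p = 0.0001) and was detected on 1 GFRα1+ array. Meg3, an imprinted tumour suppressor RNA, fell at both steps, with mean levels of 1.11 in GFRα1+, 0.35 in NGN3+ and −0.49 in KIT+ cells and −1.86 in whole testes. Rmst had mean levels of −1.65, −4.05 and −5.43 and was detected on no KIT+ array, but was at −1.22 in whole testes. Tsx, a noncoding gene beside Xist, was detected on no GFRα1+ array and had mean levels of −1.47 in NGN3+, −1.20 in KIT+ cells and 1.19 in whole testes. From NGN3+ to KIT+ cells 3 of 32 were higher by the brightest probe (Malat1, Airn and Tug1) and 7 were lower (Meg3, Xist, Gas5, Snhg1, Snhg6, Rmst and Crnde), beside 16.9% of all probes tested in each direction. The Malat1 probe is one near its 3′ end, and other probes of Malat1 and Airn differed from those counted, as given above. The list was written with earlier results of these data known and shares some of the lincRNA probes.

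Probes of 1 region did not always move alike. Between NGN3+ and GFRα1+ cells, 1395 regions had at least 2 probes tested, of which 904 had a called probe: all probes were higher in 111 and lower in 160, and 52 had probes called in both directions. The median spread of ratios within a region was 0.50. The ratios of the 2 strands of an interval were weakly related: across 496 intervals tested on both strands the correlation of their ratios was 0.07 (Pearson) and 0.11 (Spearman), and it was 0.09 and 0.12 over 514 intervals in KIT+ against NGN3+. These correlations are over regions that share arrays and carry no test. In 16 intervals the strands were called in opposite directions, in 64 both were lower and in 3 both were higher.

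Examples were chosen as the intervals with the largest difference between strands. At chr14:78214602-78225827 the forward probe was detected on no GFRα1+ array and was at least 8.65-fold higher in NGN3+ cells, and the reverse probe had a ratio of −0.45 (adjusted p = 0.512). At chr17:3004525-3086000 the ratios were −0.85 forward (adjusted p = 0.0164) and 2.93 reverse. At chr7:137669441-137675722 the forward probe was detected on no GFRα1+ array and was at least 10.3-fold higher in NGN3+ cells, and the reverse probe had a ratio of 0.64. At chr1:33965074-34060850 the reverse probe had a ratio of 2.81 that did not pass (adjusted p = 0.359, SD 6.26 over the NGN3+ arrays). Of the 1067 intervals probed on both strands, those detected on both were 28.8% in GFRα1+, 45.8% in NGN3+, 39.1% in KIT+ cells and 36.1% in whole testes.

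Ratios of lincRNA probes were closest to those of named genes with a probe inside the region on the same strand. Some of these pairs are the same stretch of transcript, since their probes overlap or share all bases. Across 292 such regions the ratio of NGN3+ to GFRα1+ correlated with the gene's at 0.68 (Pearson) and 0.58 (Spearman), and of 124 where both passed 115 (92.7%) went the same way. Without overlapping or identical pairs, a split added after these values were seen, the correlations were 0.64 and 0.52 over 238 regions, and 91 of 100 went the same way. The share was 71.1% for genes outside within 10 kb and 68.8% for those 10 to 100 kb away, in a comparison in which most called probes were lower. Between KIT+ and NGN3+ cells the values were 0.69 and 0.67 over 301 regions, with 68 of 70 (97.1%) going the same way, and 0.63 and 0.59 over 245 regions without such pairs (47 of 49 the same way). Probes inside on the opposite strand gave 0.12 and 0.19 (183 regions) in the first comparison, and genes outside the region within 10 kb 0.09 and 0.04 (602 regions). For KIT+ against NGN3+ cells genes outside within 10 kb gave 0.32 and 0.24 over 623 regions, and 48 of 60 where both passed (80%) went the same way. Of these, 37 of 40 on the same strand (92.5%) and 11 of 20 on the opposite strand did. For genes 10 to 100 kb away 39 of 68 did (57.4%). Genes 10 to 100 kb away gave 0.04 and 0.04 over 935 regions in NGN3+ against GFRα1+ cells, where 224 regions had none within 100 kb. All of these are descriptions over regions that share arrays, with no test.

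**Figure D5:**
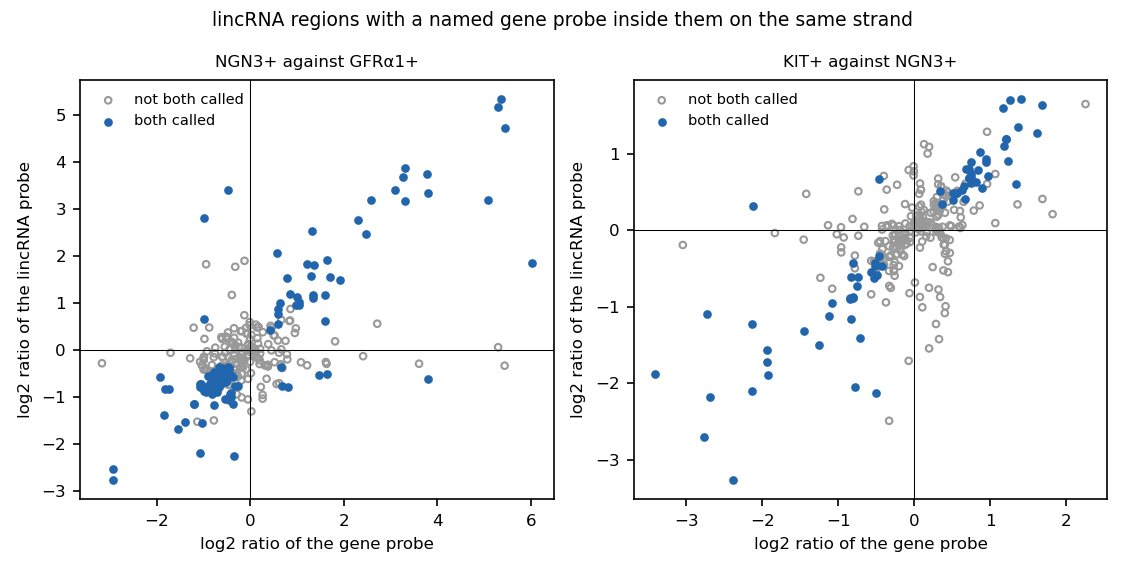
Log2 ratio of a lincRNA probe (y axis) against that of a named gene probe inside its region on the same strand (x axis), for NGN3+ against GFRα1+ (left, 292 regions) and KIT+ against NGN3+ (right, 301 regions). Filled points passed at both probes, of which 92.7% and 97.1% went the same way, pairs of overlapping probes included.

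Of lincRNA probes 32.2% on the X chromosome and 34.1% on autosomes were tested in NGN3+ against GFRα1+ cells. Of 189 X probes, 19 were higher (10.1%) and 49 lower (25.9%) in NGN3+ cells, beside 13.5% and 28.1% of autosomal lincRNA probes. From NGN3+ to KIT+ cells, 9 of 190 were higher (4.74%) and 12 were lower (6.32%), beside 9.79% and 12.6%. These called X probes lay in only 7 and 8 regions. In the same step 19.8% of the other X probes were higher and 18.1% lower, beside 18.6% and 18.004% of other autosomal probes. The other X probes gave 20.7% and 44.9% from GFRα1+ to NGN3+ cells, beside 19.97% and 37.9% on autosomes. Against whole testes, the median ratio of GFRα1+ cells was 0.06 at X lincRNA probes and 1.02 at other X probes, beside 0.15 and 0.53 on autosomes. These differences were not tested.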

How the data were processed

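The authors deposited 1-colour Agilent scanner output for 12 arrays (8x60K mouse design, mm9 annotation, Feature Extraction 10.7.3.1 per the submitters' processing notes, but 10.7.1.1 per the file headers of the 7 arrays on the second slide), in which intensity is the background-subtracted processed signal of a spot. The authors also deposited a table of log2 values on the same scale, used as an alternative. Here control spots and outlier spots were left out, log2 intensity was taken, and the 75th percentile of each array was subtracted. Groups were compared with limma 3.58.1 in R 4.3.3 (lmFit, eBayes) on the 9 sorted arrays, or on all 12 for comparisons with whole testes. Adjusted p values under 0.05 were called. Probes were named by rule: in each step the 10 largest rises and 10 largest falls detected in both groups without overlap, 6 and 4 against whole testes, up to 4 per direction detected in 1 group only, and 4 intervals with differing strands. Of the falls, 1 is not reported here. The lincRNA set, gene lists and rules were chosen with earlier results of these data known. Gene symbols and probe positions came from the files and RefSeq tables. Samples came from different animals, and their number limits the precision. The code was tested on simulated data. Alternatives covered background correction, scaling, the filter, slides, the replicate block, the methods' t-test and leaving out each array.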

Additional observations from a re-analysis of the deposited data

How the results depend on the processing

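Of 110 named ratios, 98 kept their direction and their side of the threshold under every alternative run, and no ratio reversed. The 12 others lost their call under at least 1 alternative, and 39 of 1766 values under alternatives did so. For NGN3+ against GFRα1+ the count of higher lincRNA probes was 314 with normexp, 476 with the slide as a block, 442 with the methods' t-test and 234 where both groups had to be detected. The count of lower probes was 4144 with no filter, 2762 with normexp, 1021 with the percentile over probes detected on every array and 973 with the t-test. For KIT+ against NGN3+, 464 were lower and 510 higher where both groups had to be detected. Against whole testes, GFRα1+ cells had 3486 higher with no filter and 713 lower where both had to be detected. NGN3+ cells had 1445 higher with normexp, 1490 with the slide block and 1076 where both had to be detected (1535 lower), and 3943 lower with no filter (3083 higher). KIT+ cells had 1296 higher with the slide block and 1045 where both had to be detected. The filter changes how many probes are tested; for the other settings the cause was not tested.

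With the looser detection mark (signal positive and significant) the shares were 52.6%, 52.5% and 59.0% in GFRα1+, 71.0%, 71.9% and 78.9% in NGN3+, 73.9%, 61.2% and 66.7% in KIT+ cells and 60.5%, 58.2% and 59.8% in whole testes, and GFRα1+ arrays then overlapped whole testes. Leaving out each array gave 622 to 1130 higher and 1074 to 1551 lower for NGN3+ against GFRα1+, and 320 to 517 higher and 541 to 634 lower for KIT+ against NGN3+. Against whole testes it gave 2068 to 2229 and 1748 to 1859 for GFRα1+, 2124 to 2300 and 1899 to 2090 for NGN3+, and 1845 to 2021 and 2051 to 2209 for KIT+ cells.

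Deviations of same-numbered arrays from their group means correlated at −0.55 to 0.23 over 22682 probes. Differently numbered arrays gave −0.34 (KIT+ replicate 3 with NGN3+ replicate 1) to 0.54 (KIT+ replicate 2 with NGN3+ replicate 1). These values cannot show whether samples of different groups came from the same mice. With the replicate number as a block the counts of higher and lower probes were 757 and 1439 for NGN3+ against GFRα1+, 482 and 662 for KIT+ against NGN3+, 2158 and 1801, 2233 and 2038, and 1927 and 2151 for GFRα1+, NGN3+ and KIT+ cells against whole testes. Dim signal limits the lincRNA probes: 41.8% were detected on no array.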
